A study of Mus musculus with 6 samples.

Results

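The transcripts of 10 enzymes of glycolysis were followed in an RNA immunoprecipitation of LIN28B from mouse B cell progenitors. They are Gpi1, Pfkl, Aldoa, Tpi1, Gapdh, Pgk1, Pgam1, Eno1, Pkm and Ldha, which run from glucose phosphate to lactate, and they were taken by gene name from the 54752 genes of the deposited expression values. Bone marrow cells of adult mice were grown in culture for 5 days in 20 ng/mL IL-7 and doxycycline (Dox), lysed, and split into an anti-FLAG IP and an input. The tet-LIN28B mice (n = 2) carried a single copy of a Dox-inducible FLAG-tagged human LIN28B cDNA at Col1a together with the rtTA activator at Rosa26, and the littermate control (n = 1) carried a single copy of rtTA alone and received Dox as well. The control IP therefore measured what the antibody and beads bring down in cells without the FLAG-tagged protein. The sources call the tet-LIN28B samples biological replicates in some places and technical replicates in another, so the p-values may cover only technical spread, and a single control mouse leaves its own spread unmeasured.

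Glycolysis converts glucose to pyruvate in the cytosol, and lactate dehydrogenase then reduces pyruvate to lactate. The steps from glucose phosphate to the triose phosphates consume ATP, while the later steps, from Gapdh to Pkm, yield NADH and ATP. Proliferating lymphoid progenitors use the pathway for both energy and precursors. LIN28B is an RNA-binding protein of fetal and embryonic cells whose zinc knuckles recognise GGAG in the loop of let-7 precursors, and it also binds many mRNAs.

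Sequences are shown for 4 of the transcripts that passed the test against their input in the tet-LIN28B mice (Ldha, higher, and Gapdh, Eno1 and Tpi1, lower), with every GGAG in capitals, overlapping ones included, so that the motif LIN28B is known for can be seen in its context. Each is the stretch of 60 coding bases within 1 exon that held the most GGAG (the first where several tied), written 5′ to 3′ on the mRNA strand, and all come from the GENCODE M21 transcripts on GRCm38. The stretches lie at chr7:46850981-46851040 (Ldha, plus strand, exon 5), chr6:125163175-125163234 (Gapdh, minus strand, exon 3), chr4:150245205-150245264 (Eno1, plus strand, exon 7) and chr6:124814207-124814266 (Tpi1, minus strand, exon 1).
Ldha: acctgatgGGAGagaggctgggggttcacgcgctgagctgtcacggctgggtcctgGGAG
Gapdh: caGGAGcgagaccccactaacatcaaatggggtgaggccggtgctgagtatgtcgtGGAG
Eno1: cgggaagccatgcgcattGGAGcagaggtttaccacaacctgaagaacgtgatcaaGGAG
Tpi1: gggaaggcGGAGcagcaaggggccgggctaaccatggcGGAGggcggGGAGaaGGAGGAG
The Ldha, Gapdh and Eno1 stretches held 2 GGAG each, a number that the best stretch of 70.2% of the modelled genes reached. The Tpi1 stretch held 5, the last pair of them overlapping by a base, and 3.5% of genes reached that number when overlaps were counted in the same way. Aldoa, which was also lower than its input, is not printed. Its best stretch held 3 GGAG, a number that 31.3% of genes reached. The motif was searched on the mRNA strand only, and its presence is a description of the letters and not a measurement of binding.

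The values are FPKM, which are scaled to transcript length and library size and carry no counts, so the depth of each library is unknown. The 6 libraries summed to between 1144868 and 1384942 FPKM, and the 10 glycolytic transcripts together held 0.113% to 0.157% of it. The B cell progenitor markers Cd79a and Vpreb1 were at 1 FPKM or more in the 3 inputs. All 9 myeloid markers were also at 1 FPKM or more there, with a summed level of 7433 and 4649 FPKM in tet-LIN28B inputs, against 6400 FPKM in the control input, as were all 4 megakaryocyte, 4 of 6 T cell, 4 of 5 mast cell and basophil and 1 of 5 erythroid markers, while the 5 stromal markers summed to at most 0.06 FPKM in the inputs. Summed marker levels do not give shares of cells, and the paper states that B cells were the large majority of the cultures by then. The part of the other cell types in the results below was not tested. The mouse Lin28b entry measured 0.24 and 0.44 FPKM in the tet-LIN28B IPs and 0.62 and 1.03 FPKM in tet-LIN28B inputs, against 0 FPKM in the control IP and 0.01 FPKM in the control input. The transgene is a human cDNA, and whether its reads align to the mouse entry was not tested. These values are therefore read neither as endogenous expression nor as the level of the transgene.

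The steady-state level of each enzyme transcript, read from the inputs, was compared between genotypes. Ldha, which encodes the lactate dehydrogenase A subunit and lies at chr7:46841475-46855627 of GRCm38, was the most abundant, with 429.7 and 478 FPKM in tet-LIN28B inputs, against 431 FPKM in the control input. Gapdh, the glyceraldehyde phosphate dehydrogenase (chr6:125161715-125166467), followed with 376 and 456 FPKM in tet-LIN28B inputs, against 478 FPKM in the control input. The ranges of Ldha and Gapdh over the 3 inputs overlapped. Pgk1, the phosphoglycerate kinase that makes the first ATP of the payoff phase (chrX:106187100-106203699), came next at 189 to 202 FPKM and overlapped with neither neighbour in this order. Eno1 (enolase, chr4:150236721-150248879), Tpi1 (triose phosphate isomerase, chr6:124810586-124814296), Aldoa (aldolase A), Gpi1 (glucose phosphate isomerase, chr7:34201330-34230336) and Pgam1 (phosphoglycerate mutase, chr19:41911923-41918660) lay between 114 and 165 FPKM, and each overlapped with the next. Pkm, the pyruvate kinase of most proliferating cells (chr9:59656368-59679375), lay at 103 to 108 FPKM. Pfkl, the liver-type subunit of phosphofructokinase (chr10:77986947-78010083), stood far below the others at 4.40 to 5.38 FPKM.

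Aldoa has a pair of gene models in GENCODE M21, at chr7:126795234-126800751 and chr7:126800790-126809108, while the deposited values hold a single entry. For most reactions the enzyme chosen was the main isozyme of these cells. The most abundant other isozyme had a mean over the 3 inputs of 2.15 FPKM for enolase (Eno1b), 2.34 FPKM for lactate dehydrogenase (Ldhb), 1.70 FPKM for aldolase (Aldoc), 0.41 FPKM for the mutase (Pgam2) and 0.113 FPKM for Gapdhs, and Pgk2 and Pklr were listed at 0 in every input. Phosphofructokinase was the exception. Pfkp, its platelet-type subunit, averaged 10.8 FPKM against 4.97 FPKM for Pfkl.

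**Figure D1:**
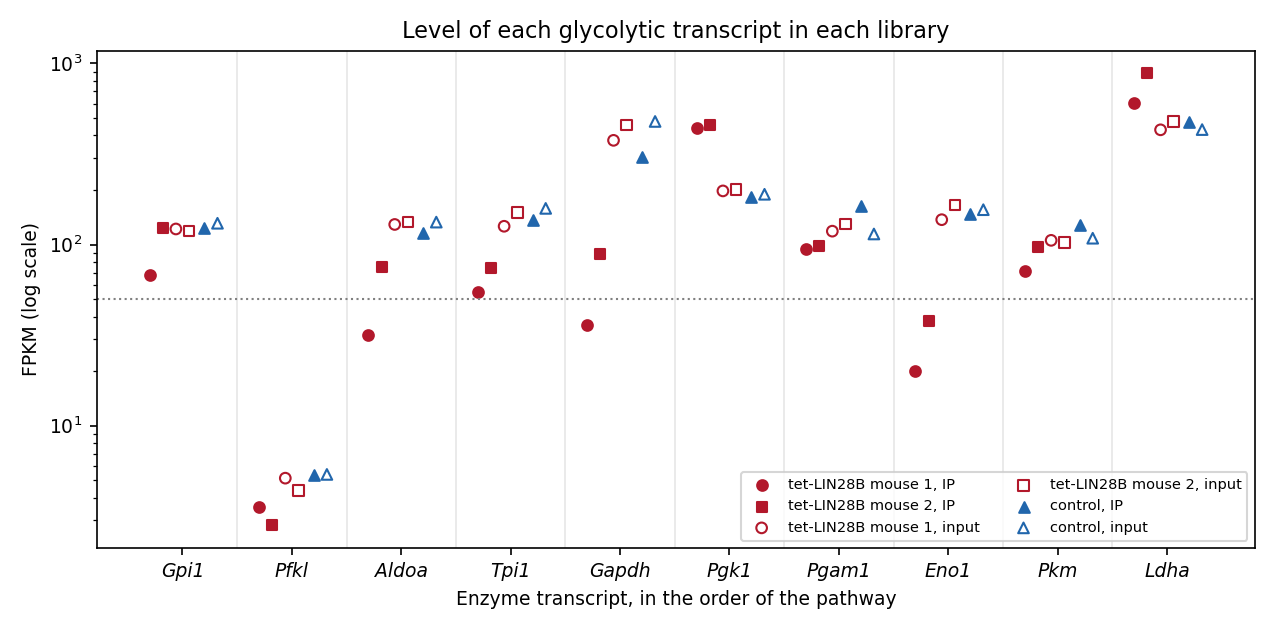
FPKM of each glycolytic transcript (log axis) in each library, in the order of the pathway. Filled symbols are IPs, open symbols inputs, red the 2 tet-LIN28B mice and blue the control, and the dotted line marks 50 FPKM. Inputs of all 3 mice lie close together for every transcript. The filled red symbols of Gapdh, Eno1, Aldoa and Tpi1 are among those that fall below the rest, while those of Pgk1 and Ldha rise above it.

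None of the 10 transcripts passed the test between genotypes in the inputs. Differences of tet-LIN28B minus control on the log2(FPKM + 1) scale ran from -0.21 (Gapdh, SE 0.19) to 0.12 (Pgam1, SE 0.13), with adjusted p-values of 0.854 to 0.97 (limma across 12576 genes, Benjamini-Hochberg). Over all genes, 0 of 12576 (0%) passed an adjusted p of 0.05 and 680 had an unadjusted p under 0.05, among them none of the 10. With 2 mice against 1 a modest change could have been missed, and in such bulk samples fewer cells of a type and less RNA per cell cannot be told apart.

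The IP/input ratio of each mouse was then taken to ask which of these transcripts LIN28B immunoprecipitation enriched or depleted. Which library is the IP was taken from the titles and column names, while the sample descriptions end with the opposite fraction. The paper lists a rounded FPKM sum for the input and the IP of each mouse, and these match the deposited values as assigned here. In the tet-LIN28B mice the mean ratios of the 10 transcripts spread over 15.5-fold, from 0.144 for Gapdh to 2.24 for Pgk1. In the control they spread over 2.24-fold, from 0.634 for Gapdh to 1.42 for Pgam1. The median log2 ratio of the 9 transcripts at 50 FPKM or more in the inputs was -0.39 in the tet-LIN28B mice, beside -0.46 over all 2045 genes at that level. The SD of the log2 ratio among these 9 was 1.32 in tet-LIN28B mice, against 0.32 in the control, beside 1.47 and 0.51 over all 2045 genes.

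**Figure D2:**
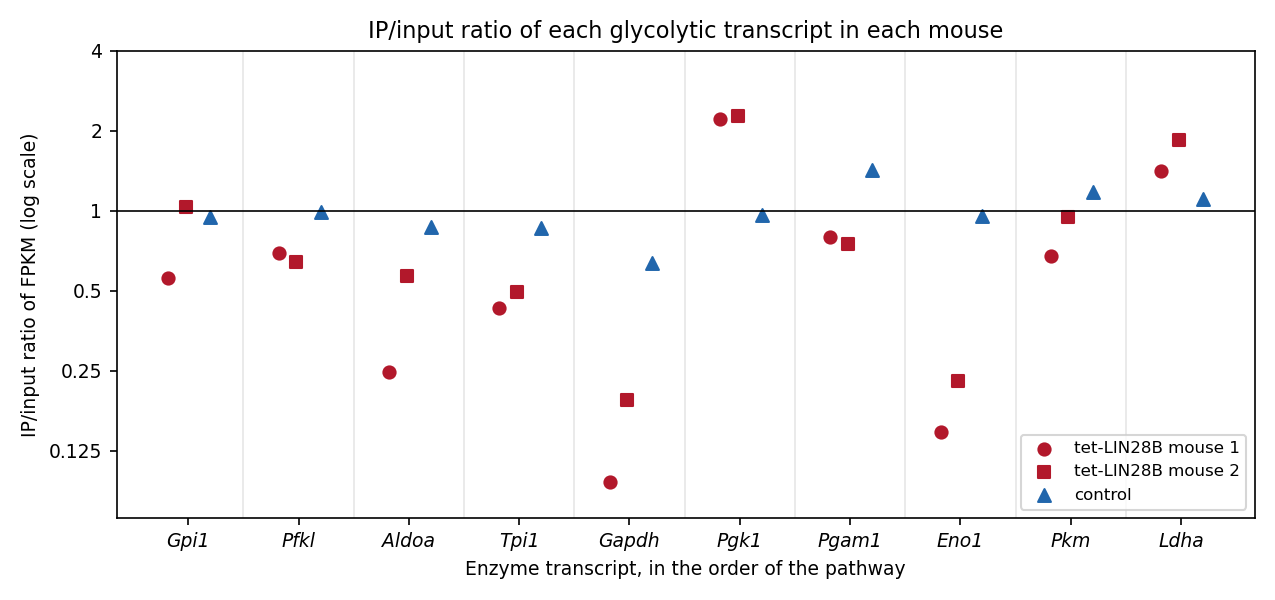
IP/input ratio of FPKM (log axis) for each glycolytic transcript in pathway order, with red symbols for the 2 tet-LIN28B mice and blue triangles for the control. The control ratios stay between 0.634 and 1.42, while the tet-LIN28B ratios run from 0.0953 for Gapdh in mouse 1 to 2.26 for Pgk1 in mouse 2.

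Tests used log2((IP + 1)/(input + 1)) of each mouse in limma, with p-values adjusted over all genes kept. The filter of the study's methods, 50 FPKM in the IP and the input of both tet-LIN28B mice, kept 1460 genes when applied here to the deposited values, but only 6 of the 10 transcripts. Gapdh, Eno1 and Aldoa were abundant in every input and were dropped because a tet-LIN28B IP fell under 50 FPKM, and Pfkl was low everywhere. A filter on the inputs alone, at 50 FPKM in all 3, kept 2045 genes and 9 of the 10, and its values are given below unless stated. Under both filters the fit gave each gene nearly the same error, because limma took the spread from all genes together, and the p-values do not reflect how well the 2 mice matched on a gene.

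Gapdh, the enzyme that oxidises glyceraldehyde phosphate and reduces NAD, had the lowest ratios. It measured 35.8 and 88.3 FPKM in the tet-LIN28B IPs and 376 and 456 FPKM in the matching inputs, against 303 FPKM in the control IP and 478 FPKM in the control input. The ratios were 0.0953 and 0.193 in the tet-LIN28B mice (0.144 ± 0.0694, SD, n = 2) and 0.634 in the control. The groups did not overlap. The log2 ratio was -2.86 (SE 0.19) in the tet-LIN28B mice and the difference from the control was -2.20 (SE 0.33, limma adjusted p = 4.64e-10). The ratio in the control was itself among the lower of its library, above that of 13% of the 2045 genes.

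Eno1, which makes phosphoenolpyruvate, measured 20.1 and 37.8 FPKM in the tet-LIN28B IPs and 137 and 165 FPKM in their inputs, against 148 FPKM in the control IP and 156 FPKM in the control input. Its ratios of 0.147 and 0.229 in tet-LIN28B mice lay far under the control ratio of 0.953. Against the control the log2 ratio differed by -2.33 (SE 0.35, limma adjusted p = 7.29e-10), a fall that lay within the standard errors of that of Gapdh. Unlike Gapdh, Eno1 had passed through the control IP at a level close to its input.

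Aldoa, which cleaves fructose bisphosphate, measured 31.9 and 75.5 FPKM in the tet-LIN28B IPs and 129 and 133 FPKM in their inputs, against 116 FPKM in the control IP and 133 FPKM in the control input. Its ratios were 0.247 and 0.568 in tet-LIN28B mice, against 0.872 in the control. Both mice were low, though more than 2-fold apart, and the difference from the control was -1.20 (SE 0.34, limma adjusted p = 0.00172). Without mouse 1 the difference was -0.61, and without mouse 2 it was -1.79. Tpi1, which interconverts the triose phosphates that aldolase makes, measured 54.5 and 74.5 FPKM in the tet-LIN28B IPs and 126 and 150.2 FPKM in their inputs, against 136 FPKM in the control IP and 158 FPKM in the control input. Its ratios of 0.432 and 0.496 lay under the control ratio of 0.862, and the difference was -0.89 (SE 0.33, limma adjusted p = 0.0182).

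Pgk1 was the transcript with the clearest enrichment. It measured 439.6 and 457 FPKM in the tet-LIN28B IPs and 198 and 202 FPKM in their inputs, against 182 FPKM in the control IP and 189 FPKM in the control input. The ratios of 2.22 and 2.26 in tet-LIN28B mice (2.24 ± 0.0281, SD, n = 2) both stood above the control ratio of 0.961. The log2 ratio rose by 1.16 (SE 0.19) over the input and by 1.22 (SE 0.34) over the control (limma adjusted p = 0.00111). Its mean ratio exceeded that of 91.3% of the 2045 genes, while its ratio in the control exceeded that of 62.7%. Pgk1 sits in the pathway directly after Gapdh, and the pair moved in opposite directions. The FPKM of Pgk1 over that of Gapdh was 12.3 and 5.17 in the tet-LIN28B IPs and 0.526 and 0.442 in their inputs, against 0.601 in the control IP and 0.396 in the control input.

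Ldha was also recovered above its input, but its difference from the control did not pass the test. It measured 604 and 881 FPKM in the tet-LIN28B IPs and 429.7 and 478 FPKM in their inputs, against 476 FPKM in the control IP and 431 FPKM in the control input. The ratios were 1.41 and 1.84 in tet-LIN28B mice, against 1.1 in the control. The log2 ratio rose by 0.69 over the input (SE 0.21, limma adjusted p = 0.00141), and the difference from the control was 0.54 (SE 0.36, adjusted p = 0.201). Pgk1 and Ldha together held 73.3% and 69.2% of the summed FPKM of the 10 transcripts in the tet-LIN28B IPs and 35.9% and 35.0% in their inputs, against 36.9% in the control IP and 32.6% in the control input. Gapdh and Eno1 together held 3.93% and 6.52% in the tet-LIN28B IPs and 29.4% and 32% in their inputs, against 25.3% in the control IP and 33.3% in the control input.

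The remaining transcripts stayed closer to their inputs. Pgam1, which moves the phosphate of phosphoglycerate, measured 94.5 and 97.6 FPKM in the tet-LIN28B IPs and 118 and 129.8 FPKM in their inputs, against 162 FPKM in the control IP and 114 FPKM in the control input. Its ratios of 0.797 and 0.752 in tet-LIN28B mice lay under a control ratio of 1.42, which exceeded that of 92.1% of genes, and the difference was -0.87 (SE 0.33, limma adjusted p = 0.0193). On the log2 scale the tet-LIN28B ratio was -0.37 and the control ratio 0.50.

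Pkm, which transfers the phosphate of phosphoenolpyruvate to ADP, measured 71.2 and 97.2 FPKM in the tet-LIN28B IPs and 105 and 103 FPKM in their inputs, against 128 FPKM in the control IP and 108 FPKM in the control input. Its ratios were 0.676 and 0.945 in tet-LIN28B mice, against 1.18 in the control, a difference of -0.55 (SE 0.33, limma adjusted p = 0.161) that did not pass. Gpi1, which turns glucose phosphate into fructose phosphate, measured 68.2 and 123 FPKM in the tet-LIN28B IPs and 122 and 119 FPKM in their inputs, against 124 FPKM in the control IP and 131 FPKM in the control input. Its ratios of 0.559 and 1.03 fell on each side of the control ratio of 0.947, so the groups overlapped, and the difference was -0.31 (SE 0.33, adjusted p = 0.448). Pfkl measured 3.56 and 2.82 FPKM in the tet-LIN28B IPs and 5.13 and 4.40 FPKM in their inputs, against 5.33 FPKM in the control IP and 5.38 FPKM in the control input. Its ratios were 0.694 and 0.641 in tet-LIN28B mice, against 0.991 in the control. It entered only the fit on all genes above 0, where its difference was -0.45 (SE 0.42, limma adjusted p = 0.518).

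Against the control, 1 of the 9 transcripts at 50 FPKM in the inputs was higher (Pgk1), beside 14% of all 2045 genes, and 5 were lower (Aldoa, Tpi1, Gapdh, Pgam1 and Eno1), beside 32.6% of all genes. Against the input, 2 were higher (Pgk1 and Ldha), beside 23.8% of all genes, and 4 were lower (Aldoa, Tpi1, Gapdh and Eno1), beside 50.1%. Under the filter on the 4 tet-LIN28B libraries (1460 genes), 1 of 6 was higher than the control (Pgk1) beside 23.2% of genes, and 2 were lower (Tpi1 and Pgam1) beside 22.2%. Against the input, that filter gave 2 higher (Pgk1 and Ldha) beside 35.8% of genes, and 3 lower (Gpi1, Tpi1 and Pgam1) beside 35.1%. The Gpi1 call (log2 ratio -0.39, limma adjusted p = 0.0319) rested on tet-LIN28B mouse 1: without it the log2 ratio was 0.05, with no test possible, and under the filter on the inputs the adjusted p was 0.0523. Without the test, 2 of the 9 transcripts had both tet-LIN28B ratios above the control, beside 33.3% of genes, and 6 had both below, beside 56.5%. The median log2 difference from the control was -0.87 over the 9 and -0.35 over the 2045 genes. With 9 transcripts, and background shares of this size, nothing is read from the counts about the list as a group.

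**Figure D3:**
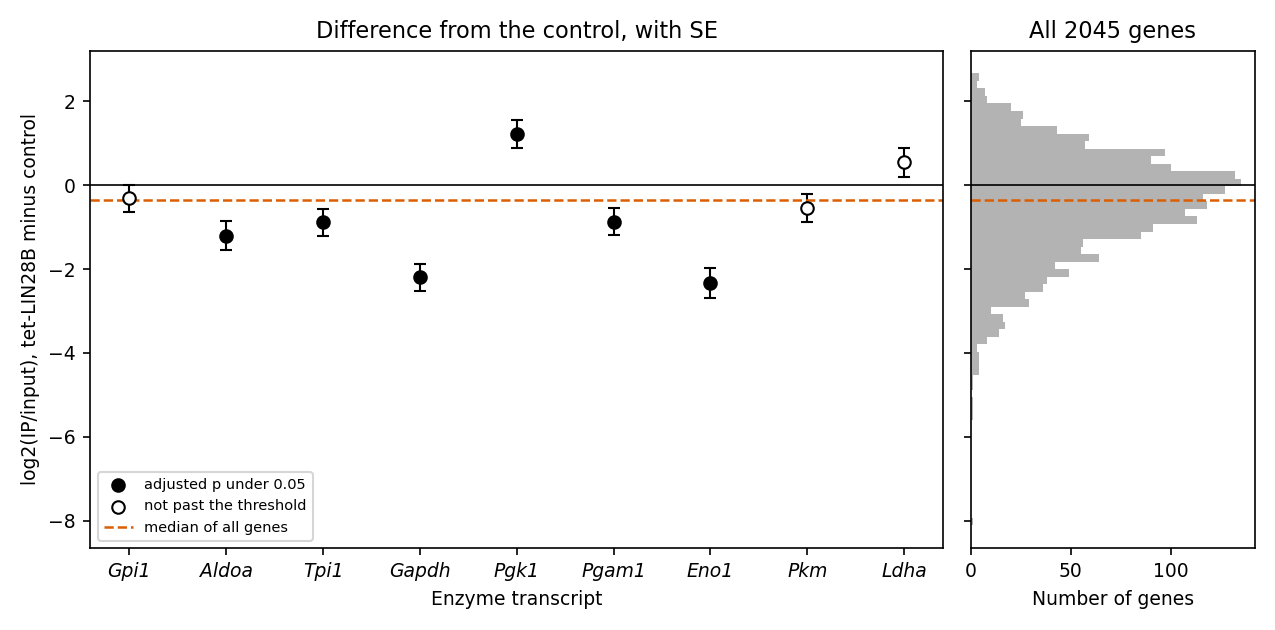
Left, log2 IP/input of tet-LIN28B mice minus the control for the 9 glycolytic transcripts at 50 FPKM or more in the 3 inputs, with standard errors from limma; filled points had an adjusted p under 0.05. Right, the same difference over all 2045 genes, with their median of -0.35 as a dashed line; Pgk1 at 1.22 and Eno1 at -2.33 lie on opposite sides of it.

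The calls against the control were not equally firm. Pgk1 and Eno1 passed the threshold in every alternative fit in which they were tested (11 of 11, with adjusted p of 0.000111 to 0.047, and 10 of 10, with 4.52e-10 to 0.0487). Gapdh passed in 9 of 10, with a limma adjusted p of 0.0971 without the replicate block. That fit no longer paired the IP and input of a mouse, and it also took less of the spread from all genes together. The SE of the Gapdh difference was 0.765 without the block, against 0.329 with it. Aldoa passed in 7 of 10 fits, and Tpi1 and Pgam1 in 6 of 11 each. When each mouse was centred on the median of the genes kept, the differences of Tpi1 and Pgam1 were -0.60 and -0.58 (limma adjusted p = 0.124 and 0.134). In that fit the differences of Pgk1 and Eno1 were 1.51 and -2.05, relative to all genes.

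In the control no glycolytic transcript had a ratio above 2 or below 0.5, limits that 1.91% and 3.81% of the 2045 genes passed. Between the tet-LIN28B mice, 8 of 10 transcripts had the higher ratio in mouse 2, beside 56.9% of the 2045 genes. Pfkl and Pgam1 were the exceptions. On the log2 scale the gap was widest for Aldoa, Gapdh and Gpi1 and narrowest for Pgk1. The median log2 ratio over the 2045 genes was -0.53 in mouse 1, -0.42 in mouse 2 and -0.19 in the control.

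The genes of the 10 transcripts have many processed pseudogenes, and reads from such copies can be split between genes. In GENCODE M21, 82.5% of the stretches of 50 bases in the Gapdh transcript also occurred in transcripts of other genes, as did 72.2% of those of Eno1, 68.0% of Pgk1 and 41.5% of Pgam1, beside 7.51% of Tpi1 and 0.05% of Pfkl. Of 10 pseudogene entries named after a member, only Pgam1-ps2 reached 1 FPKM in any library. It measured 0.80 and 0.49 FPKM in the tet-LIN28B IPs and 4.71 and 5.62 FPKM in their inputs, against 19.3 FPKM in the control IP and 4.40 FPKM in the control input. With this entry added to Pgam1, the difference from the control was -1.02 (SE 0.32, limma adjusted p = 0.00499). The 99 genes sharing at least 5% of the Gapdh stretches summed to 1.46 and 2.56 FPKM in the tet-LIN28B IPs and 22.1 and 23.3 FPKM in their inputs, against 25 FPKM in the control IP and 26.2 FPKM in the control input. This total was lower in the tet-LIN28B IPs than in their inputs, as Gapdh was, but with reads split between such genes it is not independent of Gapdh. The part of split reads in the ratios was not tested.

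Transcript features were set beside the ratios, as descriptions across genes that share the same 6 libraries. Pgk1 and Ldha, the transcripts with ratios above 1 in both tet-LIN28B mice, had the lowest GC content of the 10, at 49.7% and 51.0%, while Gapdh, Aldoa, Eno1, Pfkl and Pkm lay between 56.6% and 57.7%. Pkm, the highest in GC, had tet-LIN28B ratios of 0.676 and 0.945 and passed neither against its input nor against the control. The median of the modelled genes was 50%. Across 1849 genes the mean log2 ratio of the tet-LIN28B mice correlated with GC content at a Spearman rho of -0.22 (Pearson r -0.20), and that of the control at 0.08. Across the 9 transcripts at 50 FPKM in the inputs the rho was -0.58 (Pearson r -0.78) for tet-LIN28B mice, against -0.18 (r -0.29) for the control. With the GC content of the coding bases alone, it was -0.27 (r -0.58) for tet-LIN28B mice, against 0.23 (r 0.11) for the control. Transcript length was related to the ratio in both genotypes, with a rho of 0.31 in tet-LIN28B mice, against 0.44 in the control. Across the 9 transcripts this rho was 0.42 in tet-LIN28B mice, against 0.53 in the control. The transcripts of Gapdh (1420 bases) and Aldoa (1511 bases) were the shortest of the 10. Eno1, also depleted, had 2027 bases, more than Pgk1 (1825 bases) and Ldha (1766 bases). The part of GC content and length in the ratios was not tested.

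**Figure D4:**
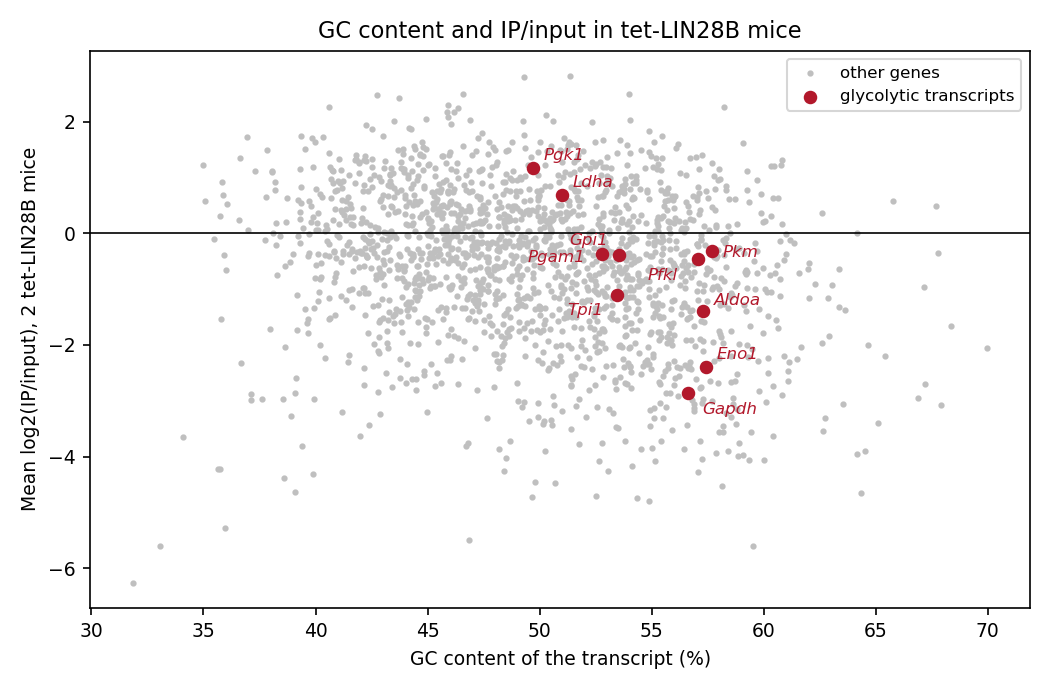
GC content of the transcript (%) against the mean log2 IP/input of the 2 tet-LIN28B mice, with glycolytic transcripts in red and other genes at 50 FPKM or more in the inputs in grey. Pgk1 (49.7%) and Ldha (51.0%) lie above 0 and at the low end of the red points, while Gapdh and Eno1 lie lowest, near 57% GC. Pkm, with the highest GC of the red points (57.7%), lies at -0.32.

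The density of GGAG was also read over each whole transcript. Pgk1 had the lowest density, with 9 GGAG in 1825 bases (4.93 per kb), and Ldha the next lowest, with 12 in 1766 bases (6.80 per kb). Tpi1 had the highest, with 21 in 1607 bases (13.1 per kb), and was depleted. Gapdh and Eno1 had 7.04 and 8.39 per kb, and the median over the modelled genes was 6.82 per kb. Across the 1849 genes GGAG density correlated with the tet-LIN28B ratio at a rho of 0.06 and with the control ratio at 0.12. Across the 9 transcripts the rho was -0.23 in tet-LIN28B mice, against 0.08 in the control, and for the longer GGAGA it was 0.35 in tet-LIN28B mice, against 0.63 in the control. The part of the motif in the ratios was not tested.

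Genes around the pathway were read in the same way. Of 85 genes in 8 lists, 44 had at least 10 FPKM in the 3 inputs and were tested in a fit on 5783 genes. Against the control 4 were higher, beside 7.18% of all genes, and 11 were lower, beside 24.8%. In this fit 1 of the 9 glycolytic transcripts was higher (Pgk1) and 2 were lower (Gapdh and Eno1). The values of genes named from these lists, other than the highest and lowest of each list by the stated rule, were seen before they were chosen.

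At the entry of the pathway, Hk2, a hexokinase that traps glucose as glucose phosphate, was the only 1 of 10 uptake and hexokinase genes to reach 10 FPKM. It measured 30.8 and 25.2 FPKM in the tet-LIN28B IPs and 14.4 and 13.3 FPKM in their inputs, against 19.4 FPKM in the control IP and 11.6 FPKM in the control input. Its ratio was above 1 in all 3 mice, and the difference from the control was 0.27 (SE 0.35, limma adjusted p = 0.591). Pfkp, the more abundant phosphofructokinase, had ratios of 0.545 and 1.04 in tet-LIN28B mice, against 0.796 in the control.

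The pentose phosphate pathway, which branches off at glucose phosphate, held the highest mean ratio of the 44 genes, that of Rpia, and a low one in Pgls. Rpia, which isomerises ribose phosphate, measured 214 and 144 FPKM in the tet-LIN28B IPs and 40.3 and 34.9 FPKM in their inputs, against 83.1 FPKM in the control IP and 44.8 FPKM in the control input. Its ratios were 5.32 and 4.12 in tet-LIN28B mice, against 1.85 in the control, a rise of 1.32 over the control (SE 0.33, limma adjusted p = 0.0128). Pgls, the lactonase of the oxidative branch, had ratios of 0.179 and 0.259 in tet-LIN28B mice, against 0.967 in the control, a difference of -2.16 (SE 0.35, adjusted p = 0.0015). Tkt, the transketolase that returns sugars to glycolysis, had ratios of 1.88 and 1.59 in tet-LIN28B mice, against 1.29 in the control, and its difference of 0.42 did not pass (adjusted p = 0.35). The other 5 of the 8 tested genes did not pass either.

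The fates of pyruvate and phosphoglycerate came next. Of the 4 tested pyruvate dehydrogenase genes, Pdhb and Dld were higher than the control, by 1.09 (SE 0.34, limma adjusted p = 0.0312) and 1.08 (SE 0.31, adjusted p = 0.0241) on the log2 scale. Mpc1, a subunit of the carrier that brings pyruvate into mitochondria, had ratios of 0.0904 and 0.122 in tet-LIN28B mice, against 0.479 in the control, a difference of -2.15 (SE 0.34, adjusted p = 0.00126). Bsg, the chaperone of lactate transporters, had ratios of 0.501 and 0.788 in tet-LIN28B mice, against 0.958 in the control, which did not pass (adjusted p = 0.224). Phgdh, which diverts phosphoglycerate to serine, had ratios of 0.257 and 0.42 in tet-LIN28B mice, against 1.43 in the control (difference -2.08, SE 0.36, adjusted p = 0.00215), and Shmt2 fell as well, while the other 5 of the 7 tested genes of that branch, Psat1 among them, did not pass.

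In the TCA cycle and malate shuttle, 5 of 16 tested genes were lower than the control (Idh3g, Ogdh, Suclg1, Mdh2 and Got2), and Sucla2 was higher, by 1.13 (SE 0.32, limma adjusted p = 0.0206). Idh3g had the lowest ratios among those at 50 FPKM in the inputs, 0.15 and 0.212 in tet-LIN28B mice, against 0.671 in the control. Mdh1, the cytosolic malate dehydrogenase, had the highest, 1.06 and 0.942 in tet-LIN28B mice, against 0.873 in the control, and did not pass. Among 3 tested regulators Pdk3 and Pgp were lower and Hif1a did not pass.

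**Figure D5:**
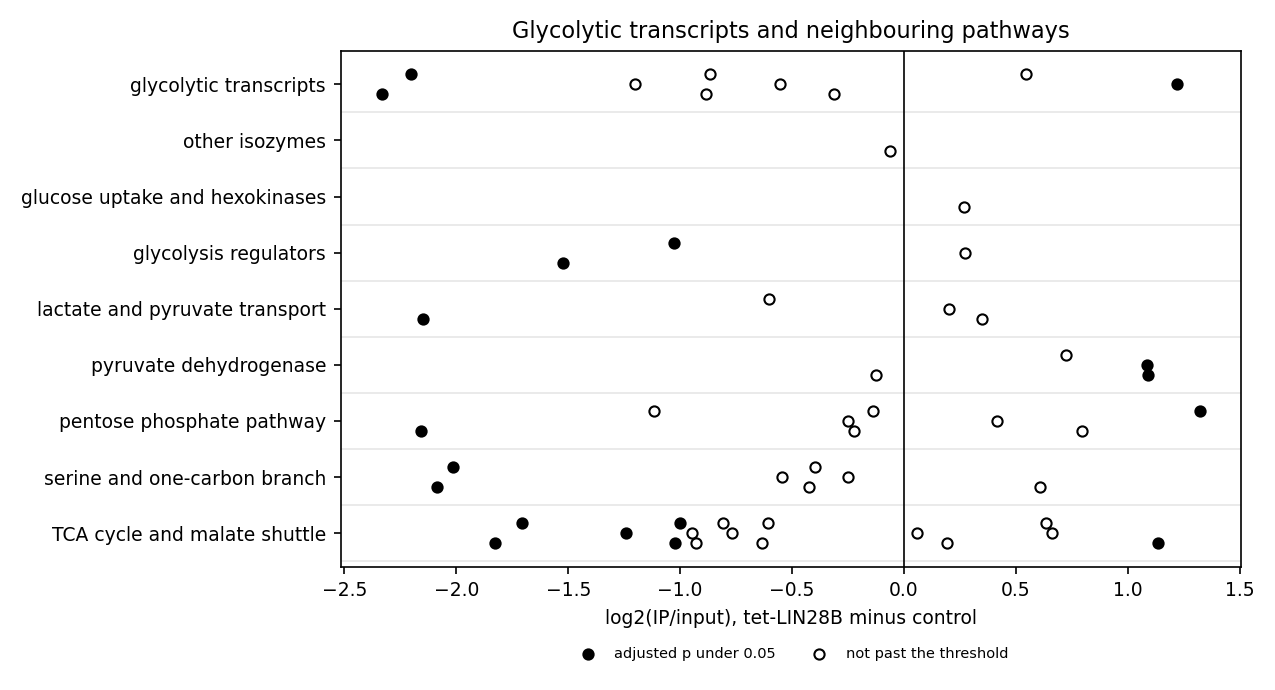
log2 IP/input of tet-LIN28B mice minus the control, 1 point per gene with at least 10 FPKM in the 3 inputs, for the glycolytic transcripts and 8 lists of neighbouring genes; filled points had an adjusted p under 0.05 in limma. Filled points lie on both sides of 0 in glycolysis, the pentose phosphate pathway and the TCA cycle.

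The genes whose ratios over the 3 mice lay nearest to the median of the 10 transcripts (-0.69 and -0.45 in tet-LIN28B mice, against -0.06 in the control, log2) were Psat1, Drap1, Btg2, Nme3 and Tbc1d10c, at Euclidean distances of 0.05 to 0.11 over the 3 log2 ratios. Psat1, at distance 0.05, is an aminotransferase of the serine branch. The mean tet-LIN28B ratios of the 10 transcripts spread over 15.5-fold, so nearness to their median is not a pattern shared with each of them.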

How the data were processed

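RNA from anti-FLAG IPs and inputs of 2 tet-LIN28B mice and 1 control was sequenced after SMART-Seq v4 amplification. Per the labels and methods, the authors used STAR 2.7.1 for alignment (mm10) and RSEM 1.28 for gene estimates; the deposited values are FPKM, depth is unknown, and the sources used here do not give the annotation release. Fractions follow sample titles and column names, while the descriptions end with the other fraction. The rounded FPKM sums that the paper lists by fraction match the titles. The descriptions give Dox in mg/mL and the methods in µg/mL, so no dose is given. No 2 of the 6 libraries held identical values (15 pairs).

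The log2 IP/input ratio of each mouse (pseudocount 1) was fitted with limma 3.58.1 in R 4.3.3, genotype as factor, with a trend on mean expression and Benjamini-Hochberg adjustment over all genes kept (threshold 0.05). The IP and input of a mouse form a replicate block because they come from the same cells; the change between the tet-LIN28B mice in the inputs and that in the IPs had a correlation of 0.366 over the 2045 genes. The filters were 50 FPKM in the 4 tet-LIN28B libraries (1460 genes) or in the 3 inputs (2045 genes); results under the filter on the inputs lead here because it kept 9 of 10 members. Inputs were tested as log2(FPKM + 1) at a mean of at least 1 FPKM. Each gene left 1 residual degree of freedom, and the control, a single mouse, took the spread of the tet-LIN28B mice.

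Transcript features come from 1 coding GENCODE M21 transcript per gene (1849 of the 2045 genes), on GRCm38, the assembly that mm10 names. Genes were named by a rule: all 10 members, the highest and lowest ratio of each neighbouring list at 50 FPKM in the inputs, the most abundant other isozyme of each reaction, pseudogene entries at 1 FPKM or more, and the 5 nearest patterns. Other genes of the neighbouring lists, Rpia among them, were named outside this rule after their values were seen. Members and lists were chosen with earlier results of these data known. Alternatives varied the replicate block, trend, scaling, pseudocount and filter, summed related genes, and dropped either tet-LIN28B mouse; those run on the filter of 2045 genes and the sum over genes sharing 50-base stretches were chosen after seeing the data. A sequence and a marker are not reported here.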

Additional observations from a re-analysis of the deposited data

Results flagged for a closer look

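For 6 of the 9 glycolytic transcripts at 50 FPKM or more in the inputs, the IP/input ratio in tet-LIN28B mice differed from that in the control by a test of the difference itself (limma, adjusted p under 0.05 over 2045 genes). In the same fit 14% of the 2045 genes were higher and 32.6% lower than the control, so nothing is read from this count about glycolysis. Pgk1 differed by 1.22 on the log2 scale, with both tet-LIN28B mice above the control. Eno1 differed by -2.33, Gapdh by -2.20, Aldoa by -1.20, Tpi1 by -0.89 and Pgam1 by -0.87, each with both tet-LIN28B mice below the control. The control was a single mouse.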

How the results depend on the processing

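Under the 1460-gene filter, 2 transcripts were higher and 3 lower than their input. Without the replicate block 1 was higher and 1 lower, without the trend 1 was lower, and scaled to TPM, where Tpi1 no longer passed the filter, 0 were lower. Lower than the control were 2, which became 5 with 50 FPKM in the inputs only, 5 with 10 FPKM in the 4 tet-LIN28B libraries and 0 without the replicate block. Under the 2045-gene filter, 5 were lower than the control, against 2 with the 1460-gene filter, 2 at 10 FPKM in the inputs, 2 without a filter, 3 with each mouse centred on its median, 3 without the trend and 1 without the replicate block. In that filter 1 rather than 2 was higher than its input without the replicate block. The log2 ratios to input of Gpi1, Pgam1 and Pkm, none of them called, turned to 0.0827, 0.108 and 0.154 when each mouse was centred. Without tet-LIN28B replicate 1 the Gpi1 ratio, called under the 1460-gene filter, turned to 0.0471, and without replicate 2 it was -0.83. The uncalled input difference of Aldoa turned to 0.0224 in TPM. In the control, 1 transcript (Gapdh) passed below a 1.5-fold threshold, against 0 at 2-fold. Leaving out a tet-LIN28B mouse left no spread to test, so those values carry no p. The causes of these changes were not tested. Of the other values per transcript, 407 kept their direction and their side of the threshold or moved by less than the spread between mice, 33 kept their direction but lost the call, and 6 kept it and gained the call. The unknown depth limits every value, most of all those of Pfkl.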
